A study of Mus musculus with 56 samples.

Results

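The change in the effect of deleting Znrf3 between 6 and 12 weeks of age was measured in the adrenal glands of female C57BL/6J mice. It was taken as the log2 difference between conditional knockout (cKO) and control glands at 12 weeks minus the same difference at 6 weeks. A positive value therefore means that the cKO gland stood higher, relative to its control, at 12 weeks than at 6 weeks. The contrast used 16 of the 56 samples of the series, in 4 groups of 4 mice: SF1-Cre+; Znrf3 Fx/Fx females (cKO) aged 12 weeks, SF1-Cre negative littermates (control) aged 12 weeks, cKO females aged 6 weeks and control females aged 6 weeks. Each library is poly(A) RNA of adrenal tissue, and the ages are compared between different mice. SF1-Cre recombines in SF1-expressing steroidogenic cells, so the chromaffin cells of the medulla, the capsule, the vessels and the immune cells of the gland are not its targets. The labels give the controls by their Cre status only. A further 8 libraries of females aged 9 weeks, 4 cKO and 4 control, entered the same fit and are used below as libraries outside the contrast. The study's stated question was what accompanies the switch of the cKO gland from overgrowth to regression.

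The adrenal cortex is renewed from its outer edge, where cells next to the capsule form the zona glomerulosa, which makes aldosterone under the control of angiotensin II and potassium. Wnt signals act strongest in this outer zone and fade inward, where the zona fasciculata makes glucocorticoid. ZNRF3, a ubiquitin ligase in the membrane, lowers the number of Wnt receptors a cell displays, and R-spondins, of which RSPO3 comes from the capsule, hold ZNRF3 back.

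Few genes passed in the change of the genotype effect between the ages, and almost all that passed moved the same way. Of 18645 genes tested, 60 passed an adjusted p of 0.05 (0.322%), of which 59 had a positive change (0.316%) and 1 a negative change (0.00536%). The direction was less one-sided at looser calls. By edgeR's quasi-likelihood test 1935 genes had an unadjusted p under 0.05, of which 1106 were positive, and DESeq2 called 285, of which 233 were positive. Of the 59 called genes with a positive change, 58 were lower in cKO than in control glands at 6 weeks, and 49 of them were still lower at 12 weeks, by less. Their median log2 fold change of cKO over control was -1.14 at 12 weeks and -2.55 at 6 weeks, and in the median gene 44.9% of the 6-week log2 effect was left at 12 weeks. The median change of the effect was 1.31 (range 0.47 to 5.05), against 0.00 over all genes tested. The same contrast selected these genes, which favours a large change and a low share left. Both values describe the called genes only and are no separate estimate. The 1902 genes chosen as lower in cKO glands from libraries outside the contrast, described further below, had median effects of -1.54 at 12 weeks and -1.98 at 6 weeks. For scale, 4675 genes differed by genotype at 12 weeks (25.1%) and 6220 at 6 weeks (33.4%), and 3573 of the 3575 genes that passed at both ages had the same direction at both. The standard error is larger for the change than for either effect (median over all genes 0.21, against 0.15 at each age), and 13 of the 60 called changes were under 1 in size.

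**Figure D1:**
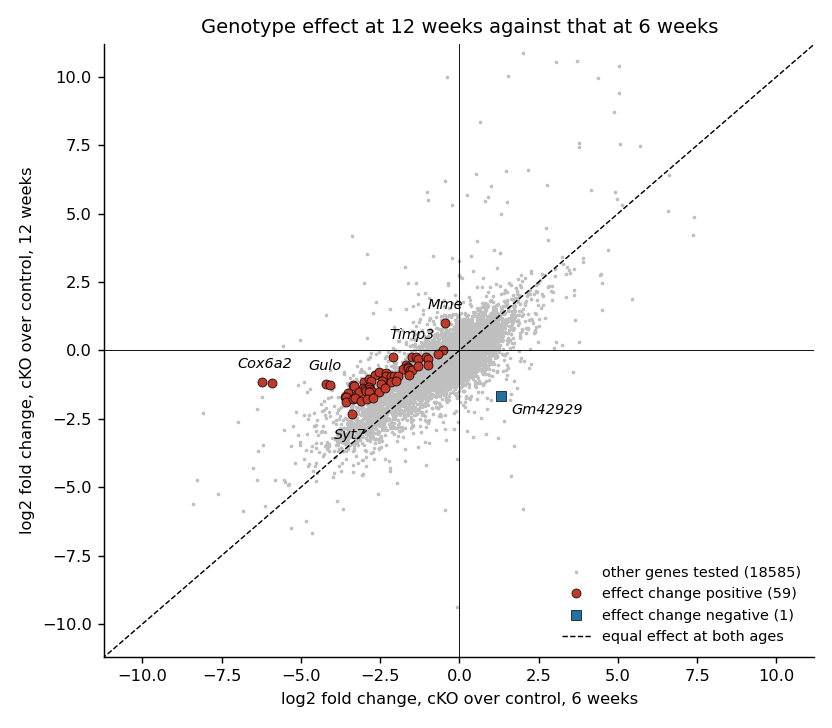
Each point is 1 of the 18645 genes tested, with the log2 fold change of cKO over control at 6 weeks on the horizontal axis and at 12 weeks on the vertical axis. The 59 genes with a positive change of the effect (red) lie above the dashed line of equal effect, and all but Mme and Timp3 lie below 0 at both ages. Gm42929 (blue) is the single gene with a negative change.

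The age differences that passed for these genes were within cKO glands. All 59 genes were higher in cKO glands at 12 than at 6 weeks by the same test (median log2 fold change 1.25), where 1852 genes changed in all (9.93%; 1124 higher, 6.03%). None of the 60 passed in control glands between these ages, where 17 genes changed in all (0.0912%, all higher; 0 lower by edgeR's quasi-likelihood test, with 532 lower at an unadjusted p under 0.05 and 21 lower by DESeq2). In 58 of the 59 genes every cKO library at 12 weeks lay above every cKO library at 6 weeks, and in 55 the control libraries of the 2 ages overlapped. The 4 without overlap were F5, 1700025G04Rik, Mme and Tacc2. In 44 of the 59, every cKO library at 12 weeks still lay below every control of that age. The contrast itself selected these genes, so such counts describe them and are no separate test. The share of all genes tested with the same separation or overlap is not given here, so the counts have no background to be read against.

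The libraries in the fit held 35694264 to 51604620 counts. The tissue label was borne out by cortical genes: Star, the cholesterol carrier that starts steroid synthesis, was at 8614 to 10172 CPM (counts scaled to library size, after TMM normalisation) in cKO and 7063 to 14647 in control glands at 12 weeks, and at 5789 to 9906 in cKO and 9067 to 15888 in control glands at 6 weeks. The count over the whole Znrf3 gene does not check the deletion, since it was higher in cKO glands at both ages, with a change between ages of 0.06 ± 0.18 (SE; adjusted p = 0.953). The liver transcript Alb stood at 293 CPM in cKO replicate 2 at 12 weeks, at 10.5 in cKO replicate 4 of that age and at 5.64 or less in the other 14 libraries. Leaving out cKO replicate 2 at 12 weeks left 11 calls in place of 60, and those 11 are the genes that passed in each of the 16 fits that left out a single library. Calls also moved by over 1.5 times without cKO replicates 1, 3 and 4 at 12 weeks (24, 36 and 143), control replicates 1 and 2 at 12 weeks (12 and 24), cKO replicates 2 and 4 at 6 weeks (28 and 38) and control replicates 3 and 4 at 6 weeks (16 and 29). The sign of the change was the same for all 60 genes in every setting that gave a value.

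The 11 genes that passed in every leave-one-out fit were Fam13c, Pcp4l1, D630039A03Rik, Vsnl1, Cpb1, Kcnk9, Agtr1b, Elovl7, 1700025G04Rik, Gulo and Ldhb. Among them are 3 zona glomerulosa genes, which are described first with their values in each library. Genes of the 60 that are named here beyond the largest 15 changes and the list members were chosen after their values were seen.

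Vsnl1 encodes visinin-like 1, a neuronal calcium sensor protein that in the adrenal is enriched in the zona glomerulosa (GRCm38 chromosome 12, 11325242 to 11436613, minus strand). It was at 14.8, 19.5, 16.6 and 13.7 CPM in the cKO glands at 12 weeks, against 48.7, 64.4, 47.0 and 47.9 CPM in controls of that age. In the cKO glands at 6 weeks it was at 7.51, 4.75, 6.78 and 3.22 CPM, against 56.1, 82.5, 72.2 and 56.7 CPM in controls of that age. The cKO libraries lay below the controls at both ages without overlap, and the cKO libraries at 12 weeks lay above those at 6 weeks. The change of the genotype effect was 1.90 ± 0.29 (SE; adjusted p = 0.00509), from effects of -1.69 at 12 weeks and -3.59 at 6 weeks.

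Agtr1b encodes a type 1 angiotensin II receptor, one of the pair that rodents carry, through which angiotensin drives aldosterone release (chromosome 3, 20314473 to 20367177, minus strand). It was at 4.04, 5.94, 3.74 and 5.61 CPM in the cKO glands at 12 weeks, against 16.2, 20.1, 19.3 and 16.2 CPM in controls of that age. Levels in cKO glands at 6 weeks were 1.97, 1.47, 2.18 and 1.3 CPM, against 14.1, 22, 22.3 and 24.4 CPM in controls of that age. No library of a cKO group overlapped its controls. The effect changed by 1.69 ± 0.28 (adjusted p = 0.0124). Kcnk9 encodes TASK-3, a leak potassium channel that sets the resting potential of glomerulosa cells (chromosome 15, 72501089 to 72546340, minus strand). It was at 86.3, 103, 81.1 and 70.5 CPM in the cKO glands at 12 weeks, against 216, 334, 315 and 284 CPM in controls of that age. The cKO glands at 6 weeks held 43.3, 25.2, 38.5 and 20.6 CPM, against 307, 291, 329 and 332 CPM in controls of that age. Its effect changed by 1.55 ± 0.25 (adjusted p = 0.0119), and the groups were again apart at both ages.

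Of the 12 zona glomerulosa genes tested, these 3 passed in the change of the effect (0.322% of all genes did). A positive value was seen in 10 of the 12 (49.3% of all genes), and the median was 0.85, against 0.00 over all genes. At 12 weeks 10 of the 12 were lower in cKO glands (16% of all genes were), and at 6 weeks 11 were (19.1% of all genes). Between the ages 7 of the 12 were higher in cKO glands at 12 weeks (6.03% of all genes were). In controls 0 of the 12 changed, where only 0.0912% of all genes did. The aldosterone synthase gene Cyp11b2 was at 83.2 to 97.7 CPM in cKO and 237 to 429 CPM in control glands at 12 weeks, and at 18.6 to 42.7 CPM in cKO and 251 to 447 CPM in control glands at 6 weeks. Its change of 1.52 ± 0.50 did not pass (adjusted p = 0.233), although it was close in size to that of Kcnk9. Shh, the ligand made by progenitors under the capsule, had a change of 1.37 ± 0.32 (adjusted p = 0.0658). The member farthest the other way, Nr4a2, is also an immediate early gene and is described with those below. In whole glands, fewer cells of a zone and less RNA per cell cannot be told apart.

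Cpb1, which encodes a carboxypeptidase B best known from the pancreas, is the neighbour of Agtr1b on chromosome 3 (20248264 to 20275733, minus strand; 38.7 kb apart), and both passed. It was at 4.39, 4.96, 3.17 and 3.94 CPM in the cKO glands at 12 weeks, against 9.17, 12.7, 15.2 and 11.3 CPM in controls of that age. Levels in cKO glands at 6 weeks were 1.88, 1.13, 1.11 and 0.706 CPM, against 12.9, 13.3, 13.5 and 15.9 CPM in controls of that age. The change was 1.97 ± 0.30 (adjusted p = 0.00509), and no cKO library overlapped a control of its age. Other called genes within 200 kb of each other were Steap2 and Steap1 on chromosome 5 (41.7 kb apart), Gm14066 and Ism1 on chromosome 2 (0.5 kb) and Tmem56 and Gm42929 on chromosome 3 (144.9 kb), of which the last pair moved in opposite directions.

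Promoter letters were read from the RefSeq windows on GRCm38.p6, as the 250 bases before the start, for 43 of the 60 genes (55 windows). The letters ATCAAAG, or CTTTGAT on the other strand, which TCF/LEF factors of the Wnt pathway bind, were in 3.64% of these windows and in 3.21% of all 32851 windows of that length. The letters AAGGTCA, or TGACCTT, which the steroidogenic factor SF1 binds, were in 3.64% and 4.08%. Both shares lie near the background. The windows below are the 2 with the TCF/LEF letters, 1 of those with the SF1 letters, and those of the adjacent pair Agtr1b and Cpb1, which hold neither; capitals mark the motif. Another window of Steap2 holds the SF1 letters. Vsnl1 and Steap2 each have a further window, at a different annotated start, that holds neither motif (chr12:11436579-11436828 and chr5:5694569-5694818). All windows printed below are on the minus strand and are written 5′ to 3′.
Vsnl1 (chr12:11435652-11435901, motif at -62 to -56 from the start): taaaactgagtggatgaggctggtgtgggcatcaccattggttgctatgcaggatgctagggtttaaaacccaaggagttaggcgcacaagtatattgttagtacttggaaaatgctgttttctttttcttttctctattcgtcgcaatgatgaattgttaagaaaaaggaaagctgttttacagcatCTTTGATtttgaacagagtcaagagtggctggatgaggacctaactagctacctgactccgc
Steap2 (chr5:5694090-5694339, motif at -237 to -231): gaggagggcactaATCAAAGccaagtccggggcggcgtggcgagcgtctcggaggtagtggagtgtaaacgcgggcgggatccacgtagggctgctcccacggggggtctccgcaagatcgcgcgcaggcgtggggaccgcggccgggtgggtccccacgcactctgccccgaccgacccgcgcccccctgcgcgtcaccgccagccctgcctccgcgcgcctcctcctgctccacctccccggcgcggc
D630039A03Rik (chr4:57916265-57916514, motif at -175 to -169): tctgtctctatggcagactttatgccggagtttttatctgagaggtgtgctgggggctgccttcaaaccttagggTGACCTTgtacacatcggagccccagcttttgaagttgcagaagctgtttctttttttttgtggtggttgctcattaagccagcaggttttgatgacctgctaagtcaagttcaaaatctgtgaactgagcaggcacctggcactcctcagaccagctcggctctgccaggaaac
Agtr1b (chr3:20367178-20367427): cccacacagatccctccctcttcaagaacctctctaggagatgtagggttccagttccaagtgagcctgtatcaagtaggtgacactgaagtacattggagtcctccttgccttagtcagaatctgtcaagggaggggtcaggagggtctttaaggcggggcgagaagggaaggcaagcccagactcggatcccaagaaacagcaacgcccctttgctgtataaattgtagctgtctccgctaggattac
Cpb1 (chr3:20275734-20275983): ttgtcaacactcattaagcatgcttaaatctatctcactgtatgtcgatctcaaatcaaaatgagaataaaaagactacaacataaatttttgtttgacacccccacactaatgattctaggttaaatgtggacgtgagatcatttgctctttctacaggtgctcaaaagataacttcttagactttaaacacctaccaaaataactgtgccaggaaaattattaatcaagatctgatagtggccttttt

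**Figure D2:**
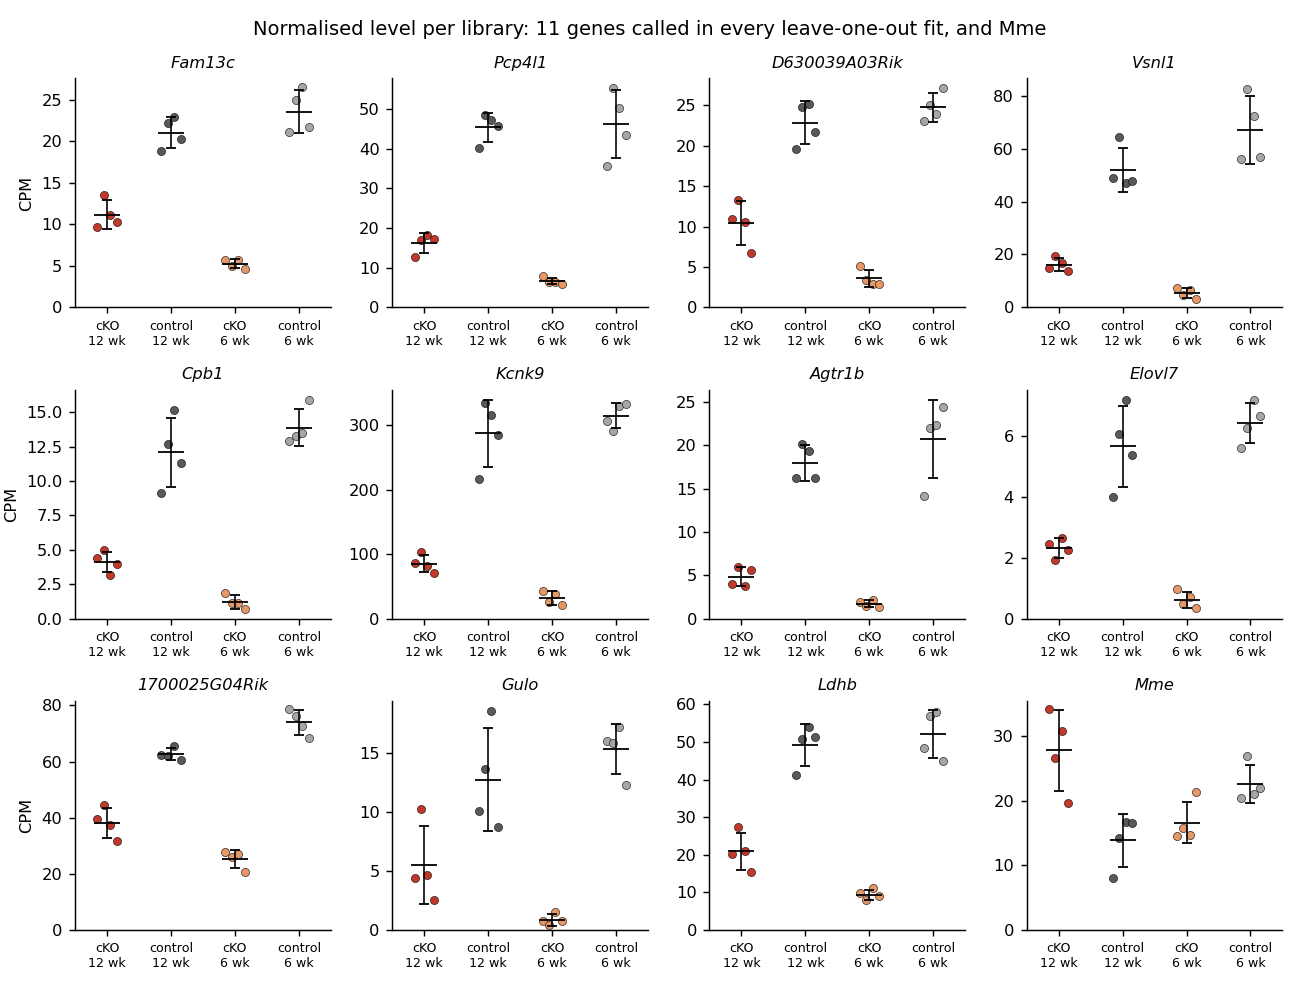
Each panel shows 1 gene, with a point for the TMM-scaled CPM of each library and a bar for the mean ± SD of the 4 mice of a group. In the first 11 panels, the genes called in every leave-one-out fit, the cKO libraries at 12 weeks lie between the cKO libraries at 6 weeks and most controls of either age; in Mme the cKO group at 12 weeks is the highest.

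Genes of Wnt signalling were next. Rspo3 encodes the capsular R-spondin that holds ZNRF3 back (chromosome 10, 29452416 to 29535867, minus strand). It was at 11.6, 15.2, 11.6 and 6.10 CPM in the cKO glands at 12 weeks, against 22.1, 28.5, 47.1 and 45.2 CPM in controls of that age. The cKO glands at 6 weeks held 3.98, 2.45, 2.83 and 2.36 CPM, against 31.5, 31.3, 35.8 and 42.9 CPM in controls of that age. Its effect changed by 1.92 ± 0.39 (adjusted p = 0.0338). The call is lost without any of 10 of the 16 libraries (adjusted p up to 0.0879, without cKO replicate 2 at 12 weeks), with the sign kept. Rspo3 was the only called member of the 16 Wnt/beta-catenin genes tested (0.322% of all genes were called). Of the 16, 12 had a positive value (49.3% of all genes did), with a median of 0.41. By edgeR's quasi-likelihood test 7 of the 16 had an unadjusted p under 0.05, against 1935 of all 18645 genes. By DESeq2 4 of the 16 passed, against 285 over all genes. In cKO glands 8 of the 16 were lower and 1 higher at 12 weeks (16% and 9.11% of all genes were). At 6 weeks 9 were lower and 1 higher (19.1% and 14.2%). Within cKO glands 6 were higher at 12 than at 6 weeks (6.03% of all genes were). Notum, a secreted lipase that inactivates Wnt ligands and is itself a Wnt target, had 2.92, 3.13, 3.89 and 2.16 CPM in the cKO glands at 12 weeks, against 4.16, 5.23, 5.95 and 6.70 CPM in controls of that age. In the cKO glands at 6 weeks it was at 1.53, 0.92, 1.84 and 1.35 CPM, against 6.78, 5.66, 8.27 and 8.68 CPM in controls of that age. Its change of 1.52 ± 0.34 missed the threshold (adjusted p = 0.0549).

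Some of the 59 encode secreted, matrix or adhesion proteins; they were picked from the called genes after their values were seen, with no test of the theme, and in the list of fibroblast, capsule and matrix genes Rspo3 alone was called (1 of 16). Sulf1, an extracellular enzyme that trims sulfate from heparan sulfate and so changes how Wnt and growth factor ligands bind, was at 17.1, 19.8, 19.2 and 9.71 CPM in the cKO glands at 12 weeks and 20.7, 26.1, 40.6 and 34.8 CPM in their controls. Levels in cKO glands at 6 weeks were 6.34, 4.91, 5.67 and 4.13 CPM, against 27.1, 25.7, 43.9 and 35.7 CPM in controls of that age. The change was 1.76 ± 0.33 (adjusted p = 0.0239), called in 12 of 16 leave-one-out fits (adjusted p up to 0.0785). The axon guidance ligand gene Ntn1 had means of 22.3 ± 2.06 CPM in cKO and 34.6 ± 6.50 CPM in control glands at 12 weeks, and 13.7 ± 1.93 CPM in cKO and 41.9 ± 4.75 CPM in control glands at 6 weeks (SD, n = 4). Its change of 0.98 ± 0.18 (adjusted p = 0.0230) was lost only without cKO replicate 2 at 12 weeks (adjusted p = 0.0615). Its relative Ntn4 changed by 1.15 ± 0.23, the secreted isthmin gene Ism1 by 1.51 ± 0.28, the laminin chain gene Lama5 by 0.81 ± 0.16 and the membrane collagen gene Col13a1 by 1.12 ± 0.22. Adhesion genes among the 59 were Cdh6 (1.43 ± 0.31), a cadherin, Alcam (1.04 ± 0.22), an immunoglobulin-type adhesion molecule, Cldn11 (1.13 ± 0.23), a tight junction claudin, and Adam23 (1.77 ± 0.35), a catalytically inactive ADAM protein. Of these 7 genes besides Sulf1, Ntn1 and Lama5, Ism1 passed in 13 leave-one-out fits and Col13a1 in 9, the others in 4 to 7; Lama5 passed in 10.

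Timp3, an inhibitor of metalloproteinases bound to the matrix, was the most abundant of the 59 and its effect lay closest to 0 at 12 weeks (chromosome 10, 86300372 to 86349506, plus strand). It was at 1035, 1062, 1100 and 981 CPM in the cKO glands at 12 weeks, against 1008, 1098, 1116 and 883 CPM in controls of that age. At 6 weeks the cKO glands held 750, 712, 697 and 734 CPM, against 1013, 1083, 1033 and 1000 CPM in controls of that age. Only the cKO group at 6 weeks stood apart from the other libraries. The effect was 0.03 at 12 weeks (adjusted p = 0.837) and -0.51 at 6 weeks, a change of 0.54 ± 0.10 (adjusted p = 0.0239; 13 of 16 leave-one-out fits, adjusted p up to 0.0697). Timp3 was 1 of 9 genes of the 59 whose 12-week effect did not pass. The others were the focal adhesion gene Tns2, Col13a1, Olfml2a, Ndrg1, Crybg3, F5, Cox6a2 and the locus AC131675.1, with 12-week effects between -0.14 (Tns2) and -1.21 (F5). An effect that misses the threshold is not shown to be 0.

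Channels, receptors and synaptic proteins among the 59 were picked in the same way, and no list of them was counted. Besides Kcnk9 and Agtr1b, they were Slc6a5, a glycine transporter (change 2.81 ± 0.57), Rasgrf1, a calcium-activated Ras exchange factor (1.73 ± 0.35), Lrrc55, an auxiliary subunit of BK potassium channels (1.67 ± 0.35), Htr3a, an ion channel gated by serotonin (1.64 ± 0.34), Npy2r, a neuropeptide Y receptor (1.57 ± 0.31), and Camkv, a pseudokinase of synaptic vesicles (1.57 ± 0.34). Atp1b1, a subunit of the sodium pump, changed by 1.00 ± 0.21, Rgs4, which shortens G protein signals, by 0.95 ± 0.18, Unc13b, a vesicle priming factor, by 0.75 ± 0.15, and Syt7, a calcium sensor of exocytosis, by 1.08 ± 0.23. Syt7 kept the largest share of its 6-week effect, 68.1%, with 7.01 ± 1.46 CPM in cKO and 34.7 ± 3.19 CPM in control glands at 12 weeks, and 3.16 ± 0.79 CPM in cKO and 33.1 ± 2.13 CPM in control glands at 6 weeks (SD, n = 4). Rgs4 passed in 13 leave-one-out fits, Npy2r in 8 and the other 8 of these 10 genes in 4 to 7.

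Several of these genes are also used by neural cells, so the medulla list stands beside them. All 15 adrenal medulla genes tested were lower in cKO glands at 12 weeks (16% of all genes were) and at 6 weeks (19.1%), and their summed level was 450 to 1103 CPM in cKO and 5419 to 6324 CPM in control glands at 12 weeks, and 295 to 560 CPM in cKO and 4343 to 5709 CPM in control glands at 6 weeks. All 15 had a positive change (0.04 to 0.78, median 0.42), as did 49.3% of all genes. Of the 15, 0 passed, with 0 at an unadjusted p under 0.05 (1935 of all 18645 genes had one) and 0 by DESeq2 (285 of all). Chga, the granule protein of chromaffin cells, had a value of 0.65 ± 0.35 (adjusted p = 0.544). Markers of Schwann and sustentacular cells had a median change of 0.13 over 10 genes, with 0 called, 1 at an unadjusted p under 0.05 and 0 by DESeq2. The part of medullary tissue in the changes of the 59 genes was not tested.

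Enzymes among the 59, likewise picked after the fact and with no list behind them, are given next. Ldhb, a lactate dehydrogenase subunit, was at 20.1, 27.3, 21.1 and 15.3 CPM in the cKO glands at 12 weeks, against 41.1, 50.9, 53.9 and 51.3 CPM in controls of that age. The cKO glands at 6 weeks held 9.66, 7.85, 11 and 8.94 CPM, against 48.5, 56.8, 58.1 and 44.9 CPM in controls of that age. The change was 1.24 ± 0.21 (adjusted p = 0.0133) and no cKO library overlapped a control of its age. Elovl7, which lengthens very long chain fatty acids, was at 2.46, 1.93, 2.67 and 2.25 CPM in the cKO glands at 12 weeks, against 4.02, 6.07, 7.20 and 5.39 CPM in controls of that age. At 6 weeks it was at 0.961, 0.489, 0.702 and 0.353 CPM in cKO and 5.62, 6.28, 7.20 and 6.66 CPM in control glands (change 2.08 ± 0.35, adjusted p = 0.0124). The secreted phospholipase gene Pla2g2f changed by 1.82 ± 0.38, the mitochondrial acetyl-CoA carboxylase gene Acacb by 0.69 ± 0.15 and the galactosyltransferase gene B4galt5 by 0.87 ± 0.16. The metalloreductase gene Steap2 changed by 0.69 ± 0.15 and its family member Steap1 by 1.01 ± 0.21.

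Gulo, which encodes the last enzyme of vitamin C synthesis in mice, is strongly expressed in liver. It was at 4.36, 10.2, 4.67 and 2.55 CPM in the cKO glands at 12 weeks, against 10.1, 13.6, 18.5 and 8.71 CPM in controls of that age. At 6 weeks the cKO glands held 0.733, 0.372, 1.53 and 0.706 CPM, against 16, 15.8, 17.2 and 12.3 CPM in controls of that age. The highest cKO library at 12 weeks is replicate 2, the one with 293 CPM of Alb, and it overlaps the controls. The change was 2.98 ± 0.51 (adjusted p = 0.0133), and 2.49 without that library (adjusted p = 0.0329). The coagulation factor gene F5 had 2.31 CPM in that library and 0.278 to 0.348 CPM in the other cKO glands at 12 weeks, against 0.798 to 2.32 CPM in controls of that age. At 6 weeks it was at 0.0587 to 0.266 CPM in cKO and 3.35 to 11.3 CPM in control glands. Its change was 4.69 ± 0.93 (adjusted p = 0.0325), and 3.32 without cKO replicate 2 at 12 weeks (adjusted p = 0.111). All 9 liver genes tested had a positive change (median 3.64), as did 49.3% of all genes. Of the 9, 0 passed, 3 had an unadjusted p under 0.05 (1935 of all 18645 genes did) and 1 passed by DESeq2 (285 of all). The part of liver RNA in the values of F5 was not tested.

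Of the other genes called in every leave-one-out fit, Fam13c, of the FAM13 family, had the smallest adjusted p. It was at 9.69, 13.6, 11.1 and 10.3 CPM in the cKO glands at 12 weeks, against 18.9, 22.2, 22.9 and 20.3 CPM in controls of that age. The cKO glands at 6 weeks held 5.70, 4.99, 5.74 and 4.66 CPM, against 21.1, 25, 26.5 and 21.7 CPM in controls of that age. The 3 levels did not overlap: controls of either age were highest, cKO glands at 12 weeks lay between, and cKO glands at 6 weeks were lowest (change 1.24 ± 0.16, adjusted p = 0.00202). Pcp4l1, a small protein related to the calmodulin regulator PCP4, was at 12.7, 16.9, 18.2 and 17.3 CPM in the cKO glands at 12 weeks, against 40.2, 48.4, 47.1 and 45.7 CPM in controls of that age. At 6 weeks it was at 7.87, 6.50, 6.42 and 5.87 CPM in cKO and 35.7, 55.2, 50.3 and 43.4 CPM in control glands (change 1.31 ± 0.19, adjusted p = 0.00507). D630039A03Rik averaged 10.4 ± 2.71 CPM in cKO and 22.8 ± 2.64 CPM in control glands at 12 weeks, and 3.60 ± 1.03 CPM in cKO and 24.7 ± 1.76 CPM in control glands at 6 weeks (SD, n = 4; change 1.65 ± 0.24, adjusted p = 0.00507). For 1700025G04Rik the values were 38.2 ± 5.35 CPM in cKO and 62.6 ± 2.2 CPM in control glands at 12 weeks, and 25.3 ± 3.25 CPM in cKO and 74.0 ± 4.52 CPM in control glands at 6 weeks (change 0.83 ± 0.14, adjusted p = 0.0124). Of the 60 genes 57 are annotated as protein coding.

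Mme and Gm42929 did not follow the common pattern, a lower cKO level at 6 weeks that was regained at least in part at 12 weeks. Cox6a2 and F5 did follow it, and are given with them because their control levels also differed between the ages. Mme encodes neprilysin, a membrane peptidase that cleaves peptide hormones (chromosome 3, 63241537 to 63386030, plus strand). It was at 34.2, 26.6, 30.8 and 19.7 CPM in the cKO glands at 12 weeks, against 7.96, 14.3, 16.7 and 16.6 CPM in controls of that age. At 6 weeks the cKO glands held 14.6, 15.8, 14.7 and 21.3 CPM, against 20.4, 26.9, 21 and 21.9 CPM in controls of that age. It was the only one of the 60 that was higher in cKO glands at 12 weeks (effect 1.00, adjusted p = 0.000857; 9.11% of all genes were higher), while at 6 weeks the groups overlapped in 1 library. The change of 1.44 ± 0.29 (adjusted p = 0.0325) passed in 6 of 16 leave-one-out fits (adjusted p up to 0.0824). It was made up of 0.74 in cKO and -0.7 in control glands between the ages, and the control part did not pass (adjusted p = 0.277). The control libraries of the 2 ages did not overlap, while the cKO libraries did (19.7 CPM at 12 weeks against 21.3 CPM at 6 weeks).

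In Cox6a2, F5 and Gm42929 the control levels at the 2 ages also lay apart in part, although no control change passed on its own. Cox6a2, the muscle form of a cytochrome oxidase subunit, rested on low counts: 6, 14, 4 and 7 in the cKO glands at 12 weeks, against 11, 32, 10 and 23 in controls of that age, and 1, 0, 2 and 1 in the cKO glands at 6 weeks, against 79, 25, 186 and 33 in controls of that age. Its change was 5.05 ± 1.00 (adjusted p = 0.0325), made up of 3.00 in cKO and -2.05 in control glands between the ages, and F5 had 2.67 and -2.02. Gm42929, a locus on chromosome 3 (121428046 to 121429331, plus strand) that overlaps another annotated gene on the same strand, had 4, 5, 5 and 4 counts in the cKO glands at 12 weeks, against 18, 17, 16 and 9 in controls of that age. The cKO glands at 6 weeks held 6, 18, 24 and 28 counts, against 7, 8, 8 and 6 in controls of that age. Its change of -2.96 ± 0.54 (adjusted p = 0.0239) was lost without cKO replicate 2 or control replicate 1 at 12 weeks (adjusted p = 0.0615 and 0.0640).

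**Figure D3:**
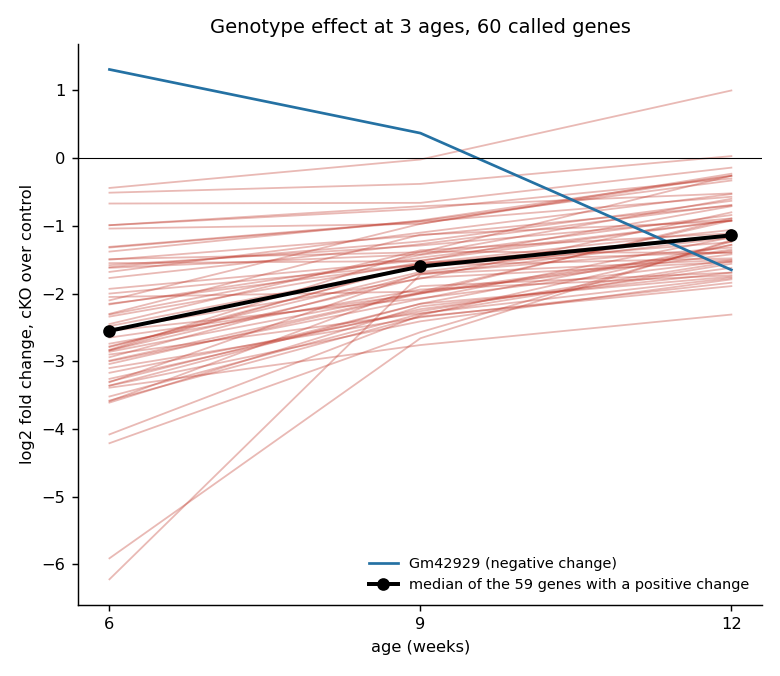
Each thin line is 1 of the 60 called genes, with age in weeks on the horizontal axis and the log2 fold change of cKO over control on the vertical axis. The black line is the median of the 59 genes with a positive change, at -2.55, -1.6 and -1.14 at 6, 9 and 12 weeks, and the blue line is Gm42929.

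The 9-week libraries, which are in the joint fit but not in the contrast, gave the genotype effect at an age between. Of the 59 genes, 58 were lower in cKO glands at 9 weeks (20% of all genes were), with a median effect of -1.6, and in 58 the 9-week effect lay between those at 6 and 12 weeks. The exception to the first count is Mme (-0.02) and to the second Cdh6 (-1.38 at 9 and -1.40 at 12 weeks). The genes were selected for 6- and 12-week effects that lie far apart, so a 9-week effect between them is no separate test. The share of all genes with such an order is not given here. From 6 to 9 weeks the effect changed in 12 genes (0.0644%), all positive, namely Pcp4l1, Vsnl1, Il34, Pik3c2g, Car8, Efemp1, Cd1d1, Aldh4a1, Serpina3c, Irf8, Metrnl and Omp, of which Pcp4l1 and Vsnl1 are also among the 60. From 9 to 12 weeks it changed in 0 genes by edgeR's quasi-likelihood test (0%), with 1664 at an unadjusted p under 0.05 and 59 by DESeq2. These contrasts share groups with the 12 minus 6 week contrast.

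Genes can also be chosen by their effect at 9 weeks, a comparison of other libraries, although the filter and the spread behind those calls come from the fit of all 24 libraries. Of the 1902 genes lower in cKO glands by at least 2-fold at 9 weeks, 72.5% had a positive change from 6 to 12 weeks (median 0.36), with median effects of -1.54 at 12 weeks and -1.98 at 6 weeks. Over all 3722 genes lower at 9 weeks, 70.7% were positive (median 0.16), against 49.3% of all genes tested. Over the 2728 higher at 9 weeks 29% were positive (median -0.07). Of the 322 higher by at least 2-fold, 41.3% were positive (median -0.14), which is nearer the share of all genes. Genes are not independent replicates, and these shares carry no test.

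Most of the 33 gene lists held no called member. Beyond the zona glomerulosa list, Rspo3 was the only called member, counted in both the Wnt list and the list of fibroblast, capsule and matrix genes (1 of 16 each). The other 30 lists had 0 called by edgeR's quasi-likelihood test, with 0 to 9 members at an unadjusted p under 0.05 and 0 to 2 called by DESeq2 in each. Over all 18645 genes 1935 had an unadjusted p under 0.05 and 285 passed by DESeq2, the background for such counts. Steroidogenesis and zona fasciculata genes had a median change of -0.02 over 17 genes, with 2 at an unadjusted p under 0.05 and 1 by DESeq2. Cyb5a, which supports steroid synthesis as an electron donor, came closest (0.64 ± 0.14, adjusted p = 0.0549), and Cyp11b1, the last step of glucocorticoid synthesis, had a value of 0.21 ± 0.18 (adjusted p = 0.755). X-zone genes had a median of 0.99 over 6 genes, with 3 at an unadjusted p under 0.05 and 1 by DESeq2. Akr1c18, the progesterone-reducing enzyme of the X-zone, had 133, 134, 29.4 and 10.3 CPM in the cKO glands at 12 weeks, against 804, 2025, 546 and 2672 CPM in controls of that age. At 6 weeks the cKO glands held 31.6, 31.6, 5.08 and 9.22 CPM, against 1237, 1361, 1351 and 3200 CPM in controls of that age. Its change of 2.22 ± 0.98 did not pass (adjusted p = 0.434), and libraries of 1 group lay far apart.

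**Figure D4:**
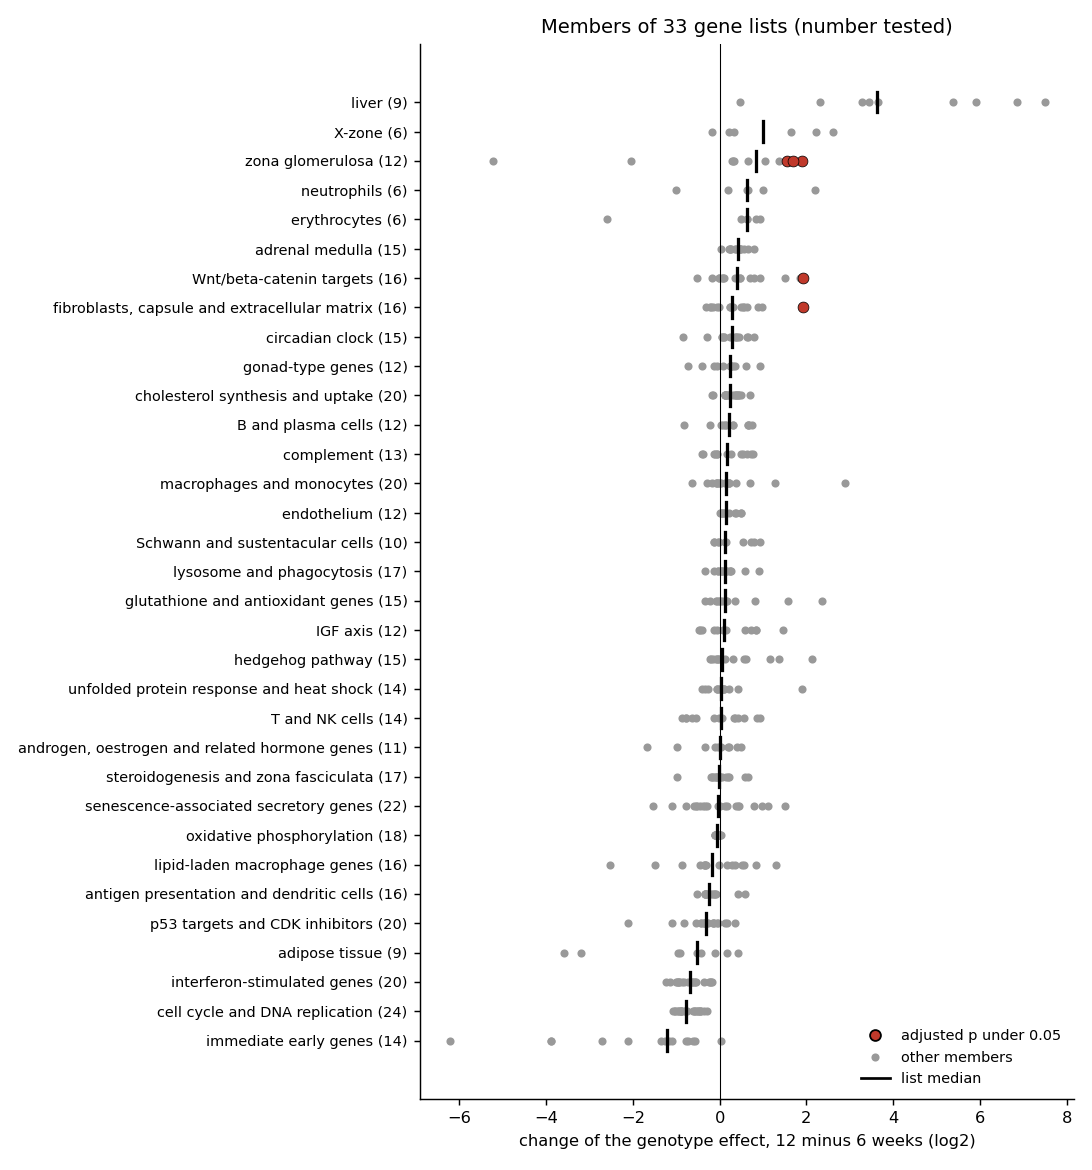
Each row is a gene list with the number of members tested, and each point is a member's change of the genotype effect from 6 to 12 weeks on the log2 scale. Red points passed an adjusted p of 0.05: 3 zona glomerulosa genes, and Rspo3 in the Wnt list and the capsule list; black bars are list medians.

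Cell cycle genes had values of the opposite sign, none of which passed. All 24 genes of cell cycle and DNA replication had a negative change (-1.08 to -0.30, median -0.78), where 49.3% of all genes were positive. Of the 24, 0 passed, 9 had an unadjusted p under 0.05 (1935 of all 18645 genes did) and 0 passed by DESeq2 (285 of all). Within cKO glands 23 of the 24 were lower at 12 than at 6 weeks (median -1.28; 3.9% of all genes were), and within controls 0 passed (median -0.38). At 12 weeks 4 of the 24 were lower in cKO than in control glands, a share near the 16% of all genes that were, and at 6 weeks 3 were higher (14.2% of all genes were). Mki67, a marker of dividing cells, was at 7.47, 14.8, 33.4 and 20 CPM in the cKO glands at 12 weeks, against 18.5, 34.3, 32.3 and 44.6 CPM in controls of that age. The cKO glands at 6 weeks held 36.0, 36.5, 76.2 and 66.3 CPM, against 53.7, 42.5, 43.9 and 40.2 CPM in controls of that age. Its change was -1.03 ± 0.52 (adjusted p = 0.512). The cell cycle inhibitor genes Cdkn1a and Cdkn2a had values of -0.83 ± 0.29 (adjusted p = 0.280) and -0.37 ± 0.30 (adjusted p = 0.735).

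Immune lists held no called gene. Interferon-stimulated genes were all negative (20 of 20, median -0.68), where 49.3% of all genes were positive. Of the 20, 8 had an unadjusted p under 0.05 (1935 of all 18645 genes did) and 0 passed by DESeq2 (285 of all). Macrophage and monocyte genes had a median of 0.14 over 20 genes, with 2 at an unadjusted p under 0.05 and 0 by DESeq2. Their summed level was 859 to 1264 CPM in cKO and 424 to 636 CPM in control glands at 12 weeks, and 509 to 982 CPM in cKO and 312 to 547 CPM in control glands at 6 weeks. The lysosomal macrophage marker Cd68 was higher in cKO glands at both ages (log2 fold change 1.50 at 12 weeks and 1.34 at 6 weeks), as was the lipid receptor gene Trem2 (1.83 and 1.85), with changes of 0.16 ± 0.51 (adjusted p = 0.952) and -0.02 ± 0.46 (adjusted p = 0.994). Endothelial genes had a positive change in 12 of 12 (median 0.14), as did 49.3% of all genes. Of these 12 endothelial genes, 0 were called, 4 had an unadjusted p under 0.05 and 1 passed by DESeq2. Their summed level was 1220 to 1282 CPM in cKO and 1235 to 1343 CPM in control glands at 12 weeks, and 1003 to 1133 CPM in cKO and 1169 to 1269 CPM in control glands at 6 weeks.

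Immediate early genes, which respond to handling and stress within minutes, had the lowest list median (-1.22 over 14 genes, 13 negative). Of the 14, 0 were called, 7 had an unadjusted p under 0.05 (1935 of all 18645 genes did) and 1 passed by DESeq2 (285 of all). At 12 weeks 10 of the 14 were lower in cKO glands and 1 higher (16% and 9.11% of all genes were). At 6 weeks 2 were higher (14.2%). In Fosb and Nr4a2 the highest values lay in single libraries. The 2 highest Fosb values were 14.3 CPM in cKO replicate 4 at 6 weeks and 49.3 CPM in control replicate 1 at 12 weeks. Fosb was at 0.343 to 3.62 CPM in the other 14 libraries of the contrast. Its change of -6.22 ± 1.6 (adjusted p = 0.0979) was -3.31 without that control and -3.48 without that cKO library. Nr4a2 encodes a nuclear receptor and is both an immediate early and a zona glomerulosa gene. It was highest in the same libraries, with 133 CPM in that cKO library and 165 CPM in that control. Elsewhere in the contrast Nr4a2 was at 3.04 to 28.1 CPM (change -5.23 ± 1.45, adjusted p = 0.135).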

How the data were processed

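The deposited values are raw counts per gene, which the authors made from poly(A) RNA libraries made with a strand-keeping kit, as per the labels. The submitters' processing notes name cutadapt 1.16, STAR 2.7.6a, RSEM 1.6.3, featureCounts (version not given in the sources used here), DESeq2 1.30.1 and the GRCm38 build, with no order or settings, so the strand setting of the counting is unknown here. Of 55487 gene IDs, 99.38% had a symbol in the annotation. Depth was 35694264 to 51604620 counts.

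Counts of the 24 female libraries were fitted together with edgeR 4.0.16 (R 4.3.3, limma 3.58.1) as 6 groups of 4, after filterByExpr with a minimum count of 10 (18645 genes) and TMM scaling. Contrasts were tested with edgeR's quasi-likelihood test, adjusted by Benjamini-Hochberg over all genes at 0.05. Here every adjusted p without another name is from that test, and ± after a log2 value is an approximate standard error, the size of the log2 value divided by the root of its F. The fit was tested on simulated data. Alternatives were DESeq2 1.42.0, relative log expression scaling, 2 other filters, the 16 libraries alone, a replicate block and each library left out.

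The comparison, its members and the gene lists were chosen with earlier results of these data known. Named genes are the 15 largest changes in each direction above a floor of 1 in average log2 CPM, called list members (or the 2 with the smallest p in a list with none) and a short set of markers. The study's design text calls the 4 samples of a group independent mice. F5, Rspo3, Gm14066, Gm42929, Neurl1a, Syt7, Tmem56, Cttnbp2, Ntn1, 1700025G04Rik, Lama5 and Olfml2a overlap another annotated gene on their strand, and their counts are uncertain to that extent.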

Additional observations from a re-analysis of the deposited data

Results flagged for a closer look

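The genotype effect differed between 12 and 6 weeks by the test of the difference itself in 59 genes with a positive and 1 gene with a negative change. Among those called in every leave-one-out fit, the log2 change was 2.98 for Gulo, 2.08 for Elovl7, 1.97 for Cpb1, 1.90 for Vsnl1, 1.69 for Agtr1b, 1.65 for D630039A03Rik, 1.55 for Kcnk9, 1.31 for Pcp4l1, 1.24 for Ldhb, 1.24 for Fam13c and 0.83 for 1700025G04Rik.

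In 12 of 124 groups of 4 libraries (31 genes) a single library lay farther from the rest than Dixon's 95% critical ratio allows; by chance about 5% of such groups do. At 12 weeks, cKO replicate 2 was high in Alb (293 CPM) and F5 (2.31 CPM) and low in Star (8614 CPM). Control replicate 1 at 12 weeks was high in Fosb (49.3 CPM) and low in F5 (0.798 CPM), and control replicate 2 was high in Vsnl1 (64.4 CPM) and low in Cdkn2a (2.62 CPM). At 6 weeks, cKO replicate 3 was high in Alb (5.64 CPM) and F5 (0.266 CPM), cKO replicate 4 in Trem2 (24.6 CPM) and Fosb (14.3 CPM), and control replicate 4 in Akr1c18 (3200 CPM).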

How the results depend on the processing

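The count of 60 genes depends on the fit. DESeq2 called 285 (81.8% of them positive, against 98.3%), including all 60, and the 16 libraries alone gave 15, of which 13 were among the 60. Leaving out 1 library gave 11 to 143. Relative log expression scaling, no filter and the filter of CPM 5 in 4 libraries gave 62, 62 and 79. Samples with the same replicate number did not deviate together (median r 0.008 over 60 pairs, 7 above 0.1), so the numbers do not pair them; with the replicate block 35 genes passed, 31 of them among the 60. Changes with age in controls (17 genes) came to 102 by DESeq2 (79.4% higher, against 100%), 4 with the CPM filter, 0 with the 16 libraries alone, 8 with the replicate block and 0 to 20 with 1 library left out. The change from 6 to 9 weeks (12) came to 93 by DESeq2 and 5 to 20 with 1 library left out, and that from 9 to 12 weeks (0) to 59 and 0 to 2. With 1 library left out, calls ranged from 3896 to 5125 for the effect at 12 weeks, 5391 to 6290 for that at 6 weeks and 1036 to 1921 for age in cKO glands. The cause of these shifts was not tested.

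Of the values of single genes, 2288 kept their direction and side of the threshold, 524 lost the call, 29 gained it and 15 changed sign. The sign changes were in genes that did not pass. With 1 library left out, Cd68 ranged from -0.07 to 0.88, Hbb-bt from -0.06 to 1.3, S100a8 from -1.8 to 1.01, Slc4a1 from -3.7 to 0.86, Trem2 from -0.3 to 0.54 and Znrf3 from -0.07 to 0.22, and Trem2 came to 0.02 with the replicate block.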
